A study of Chlorocebus aethiops with 3 samples.

Results

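The mRNAs described here encode the proteins of the cytosolic small (40S) ribosomal subunit: the RPS proteins, RPSA and FAU. They were taken by 33 human RefSeq accessions from the 32695 sequence accessions of an Agilent 2-colour expression array. Probes were present under 32 of the 33, and under NM_033022, the second of 2 accessions of RPS24, no probe was found. Each accession was represented by the brightest of its probes. The files pair probes with accessions and not with gene symbols; the symbols given here are those RefSeq uses for these accessions, from general knowledge. The RNA came from the pooled heavy polysome fractions of COS-7 cells, an African green monkey line that was made from kidney cells and has the shape of fibroblasts. On each of 3 arrays, knockdown RNA (cells given siRNAs against the coding region of human RHA) was labelled with Cy5, and control RNA (cells given scrambled siRNA) with Cy3. Both groups had siRNA at 0.5 nM, with 4 h free of serum and then 24 h with 10% FBS, were split, and went through the same transfection again before lysis; both lysates were run on sucrose gradients of 15% to 45%. The labels call the arrays biological replicates 1 to 3.

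The small subunit binds mRNA and initiator tRNA, scans for the start codon and decodes. Its head, body and platform are built of ribosomal RNA and of proteins made in equal numbers. The mRNAs of these proteins are short and abundant. They begin with a C followed by pyrimidines, the 5′ terminal oligopyrimidine (TOP) motif, through which the kinase complex mTORC1 and the RNA-binding protein LARP1 control their translation. RHA, encoded by DHX9, is a helicase that binds structured RNA and promotes translation of selected mRNAs.

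All 32 accessions with a probe were well above background in both channels of all 3 arrays, and no spot of their brightest probes was saturated or carried an outlier flag. The probes were designed on human sequence and hybridised with monkey RNA. Ribosomal protein genes have many processed pseudogenes with near-identical sequence, and these probes were not checked for matches to them. The message of the siRNA target RHA (NM_001357), by its brightest probe, had log2 ratios of -0.041, -0.20 and -0.60 and did not pass the test (limma adjusted p = 0.221). Of the fibroblast markers, VIM and THY1 exceeded background in all 3 control and all 3 knockdown channels, FN1 (NM_212482) in 1 control and 3 knockdown channels, and COL1A2 in 1 control and 0 knockdown channels. Of the epithelial markers, CDH1 was above background in 0 channels and KRT8, KRT18 and EPCAM in all of them. The blood markers PTPRC and HBB were above background in 0 channels and the liver marker ALB in 2 control and 3 knockdown channels. Of the 7 markers tested, the keratins KRT8 and KRT18 fell, with mean log2 ratios of -0.99 and -0.80 (limma adjusted p = 0.0249 and 0.0273), and the other 5 did not pass the test, among them EPCAM with a mean of 0.045 (limma adjusted p = 0.848). Their part in the results below was not tested.

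The question was how the loading of these mRNAs in heavy polysomes changed after RHA was targeted. Of the 32 small subunit mRNAs tested, 5 rose, RPS20, RPS2 and RPSA among them, 1 fell, and 26 did not pass the test (limma, adjusted p under the threshold of 0.05, adjusted over all 14526 accessions tested). Over all accessions tested 9.91% rose and 9.33% fell. The probes of these mRNAs were bright, and in the brightest 10% of accessions, which held 31 of the 32, 17.8% rose and 21.3% fell. The share of risen small subunit mRNAs, 15.6%, thus lay between the 2 backgrounds, and 1 of 32 fallen lay below both. Their mean log2 ratios had a median of 0.13, with the middle 50% between -0.030 and 0.48, beside a median of 0.010 over all accessions tested. A ratio gives the amount of an mRNA in heavy polysomes relative to other mRNAs there, so a change in loading, in mRNA per cell and in the share of cells that hold the mRNA cannot be told apart.

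**Figure D1:**
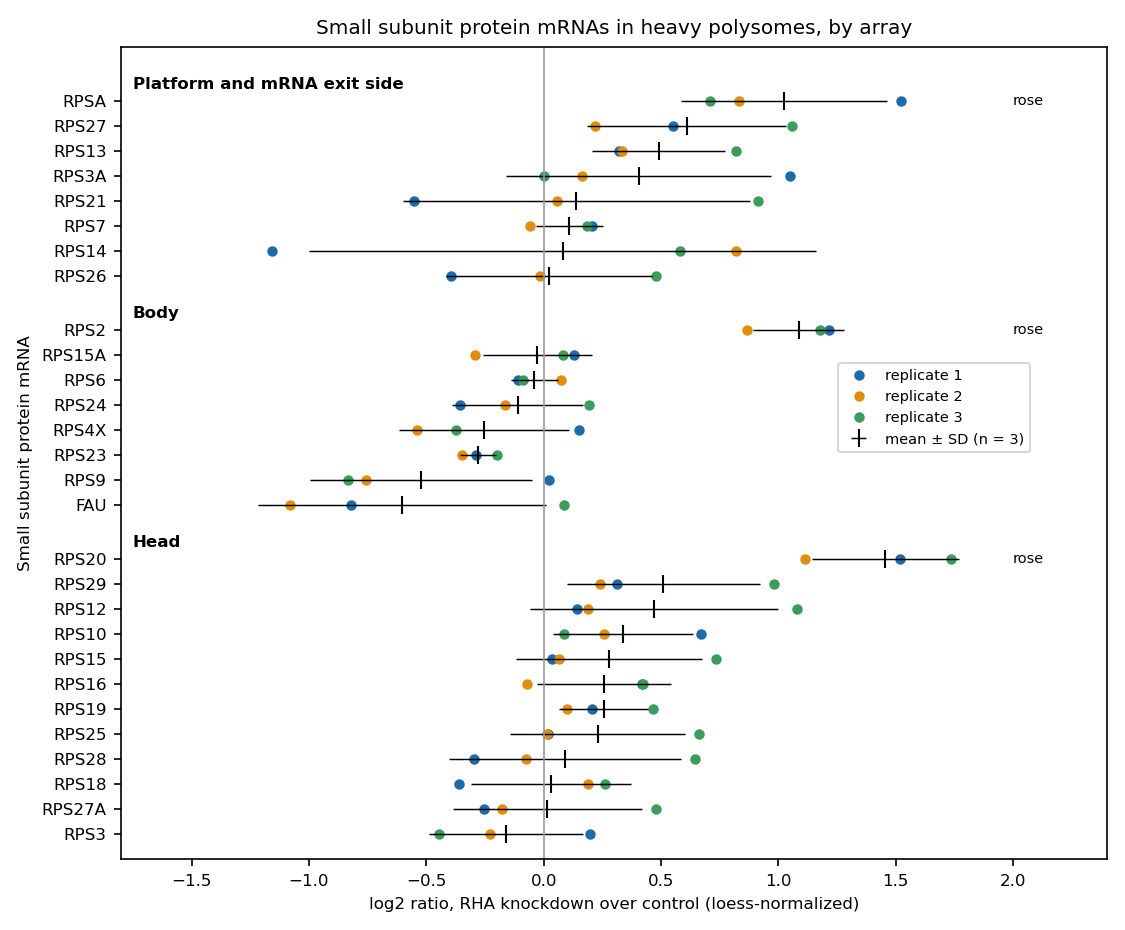
Log2 ratio of RHA knockdown over control (x axis) for each of 28 small subunit protein mRNAs (y axis), grouped by the part of the subunit that holds the protein; coloured points are the 3 arrays, and bars are mean ± SD (n = 3). RPS20, RPS2 and RPSA, which rose, lie above 0 on every array, and most others have points on both sides of 0 or close to it.

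The head of the subunit, which swivels during translocation, had 14 mRNAs. Of these 2 rose, 1 fell and 11 did not pass the test, and 12 of the 14 means lay above 0 with a median of 0.26. The shares of 14.3% risen and 7.14% fallen stood beside 17.8% and 21.3% in the brightest 10% of accessions. There 714 of 1452 means lay above 0. Differences between head, body and platform were not tested. RPS20 (NM_001023), a protein of the head, had the highest mean of the 32. Its probe gave median spot signals of 23037, 15325 and 20581 in the control channel and 121700, 132695 and 276410 in the knockdown channel of replicates 1, 2 and 3. After loess normalization the log2 ratios 1.52, 1.12 and 1.73 averaged 1.46 ± 0.31 (SD, n = 3), or 2.74-fold (limma adjusted p = 0.0143). All 3 arrays thus lay more than 2-fold above the loess curve.

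Among the other head mRNAs, RPS29 had log2 ratios of 0.31, 0.24 and 0.98 and RPS12 had 0.14, 0.19 and 1.08, in both cases with replicate 3 far above the others. RPS12 was the only one of the 32 outside the brightest 10%, with control signals of 65.5 to 133. RPS10, which is ubiquitinated when ribosomes collide, had 0.67, 0.26 and 0.089. RPS19, the gene most often mutated in Diamond-Blackfan anaemia, had 0.21, 0.098 and 0.46. RPS15, RPS16 and RPS25, the last needed by some viral internal ribosome entry sites, had means of 0.28, 0.26 and 0.23. RPS28, RPS18 and RPS27A, which is made as a fusion to ubiquitin, had means of 0.090, 0.030 and 0.015, each with arrays on both sides of 0. RPS3, which lines the mRNA entry channel, had 0.20, -0.23 and -0.45. The adjusted p of these 11 ranged upward from 0.102, that of RPS29.

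The body had 10 mRNAs, of which 2 rose and 8 did not pass the test. The shares of 20% risen and 0% fallen stood beside 17.8% and 21.3% in the brightest 10% of accessions. The means of those 8 all lay below 0, and the median of the 10 was -0.075. RPS2 (NM_002952), a protein at the mRNA entry site, gave control signals of 41358, 27298.5 and 31202 and knockdown signals of 176679, 206875 and 292031. After loess the log2 ratios 1.22, 0.87 and 1.18 averaged 1.09 ± 0.19 (SD, n = 3), or 2.12-fold (limma adjusted p = 0.0147). On this brightest probe the arrays were close to each other. The less bright probes of RPS2 gave 3.37 and 2.36 on replicate 1, far above their values on the other arrays.

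The lowest means in the body were those of FAU and RPS9. FAU (NM_001997) encodes RPS30 fused to a ubiquitin-like protein. Its control signals were 21360, 13985 and 26385 and its knockdown signals 22424, 24585 and 109155. After loess the log2 ratios -0.82, -1.08 and 0.088 averaged -0.60 ± 0.61 (SD, n = 3), with a limma adjusted p of 0.138. Replicate 3 stood apart on the other side of 0. Leaving out replicate 1, 2 or 3 gave means of -0.50, -0.37 and -0.95 (limma adjusted p = 0.298, 0.483 and 0.0126). Only the run without the differing array passed, so no change is read from it.

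RPS9 (NM_001013), a protein of the mRNA entry channel, had control signals of 1226, 1472.5 and 5865 and knockdown signals of 2371, 2727 and 10507.5. After loess the log2 ratios 0.022, -0.76 and -0.83 averaged -0.52 ± 0.47 (SD, n = 3), with a limma adjusted p of 0.122. Here replicate 1 stood apart. Leaving out replicate 1, 2 or 3 gave means of -0.80, -0.41 and -0.37 (limma adjusted p = 0.0265, 0.422 and 0.290). Again only the run without the differing array passed, so no change is read from it. The 3 proteins of the entry channel besides RPS9, namely RPS2, RPS3 and FAU, thus had means of 1.09, -0.16 and -0.60.

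RPS23 (NM_001025), which reaches the decoding centre, had log2 ratios of -0.29, -0.35 and -0.20, the smallest SD of the 32 (0.076), and a limma adjusted p of 0.115. RPS4X, encoded on the X chromosome, had 0.15, -0.54 and -0.38. RPS6 (NM_001010), the substrate of the S6 kinases, had -0.11, 0.074 and -0.086, a mean of -0.040 with a 95% interval of -0.30 to 0.22. RPS24, by its accession NM_001026, had -0.36, -0.17 and 0.19. RPS15A had 0.13, -0.29 and 0.083, on both sides of 0.

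The platform and mRNA exit side had 8 mRNAs, of which 1 rose and 7 did not pass the test. All 8 means lay above 0, with a median of 0.27. The shares of 12.5% risen and 0% fallen stood beside 17.8% and 21.3% in the brightest 10% of accessions. RPSA (NM_002295), also known as the laminin receptor precursor, gave control signals of 14143, 11729 and 25131 and knockdown signals of 75248, 81040.5 and 163040. After loess the log2 ratios 1.52, 0.83 and 0.71 averaged 1.02 ± 0.44 (SD, n = 3), or 2.03-fold (limma adjusted p = 0.0252). Replicate 1 was the highest.

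RPS27, a zinc finger protein of the platform, had 0.55, 0.22 and 1.06 and a limma adjusted p of 0.0709. RPS13 had 0.32, 0.34 and 0.82 and a limma adjusted p of 0.0661. Both lay above 0 on every array without passing the test. RPS3A had 1.05, 0.16 and 0.0020, so that replicate 1 alone set its mean of 0.40. RPS21 had -0.55, 0.058 and 0.92. RPS7 had 0.20, -0.057 and 0.18, and RPS26, which contacts mRNA upstream of the start codon, had -0.40, -0.014 and 0.48. RPS14 (NM_005617), the gene linked to the anaemia of the 5q deletion syndrome, spread most, with -1.16, 0.82 and 0.58, averaging 0.081 ± 1.08 (SD, n = 3) and a 95% interval of -0.91 to 1.08. Leaving out replicate 1, 2 or 3 gave RPS14 means of 0.70, -0.29 and -0.17 (limma adjusted p = 0.0361, 0.748 and 0.827). Only the run without the differing array passed, so no change is read from it.

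A set of 18 accessions had at least 2 tested probes, 55 in all. The range of mean log2 ratios over the probes of an accession had a median of 0.16, against a median SD between arrays of 0.40 for the brightest probes. All probes of an accession had 1 sign in 16 of the 18, and the exceptions were RPS10 and RPS3A. Probes of an accession may overlap in sequence, and the files used here do not give their sequences.

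RPSA had 7 tested probes, and each was called risen, with means from 0.97 to 1.78 (limma adjusted p over probes of 0.0266 to 0.0400). On replicate 1 these probes ranged from 1.51 to 3.02, on replicate 2 from 0.80 to 1.30 and on replicate 3 from 0.55 to 1.03. Replicate 1 was thus the highest for RPSA, and the probes spread most there. The 3 probes of RPS2 had means of 1.09 to 1.78, of which the brightest was called. On replicate 1 they ranged from 1.22 to 3.37, and on replicates 2 and 3 from 0.80 to 1.01 and 0.73 to 1.18. The 6 probes of RPS3A ranged from 0.22 to 2.29 on replicate 1, from -0.042 to 0.38 on replicate 2 and from -0.23 to 0.073 on replicate 3, and 0 of them were called (limma, 0.204 the lowest adjusted p).

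Both probes of RPS27 lay above 0 on every array, with means of 0.61 and 0.37, neither called. The 3 probes of FAU had means of -0.62 to -0.49 and were not called. For RPS13 the brightest probe was not called, while the other 2 were, with means of 0.85 and 1.06 (limma adjusted p over probes of 0.0238 and 0.0169). The 2 probes of RPS28 differed, with means of 0.090 and 0.81, neither called. Of the 6 probes of RPS10, 5 had means of 0.34 to 0.45 and 1, A_23_P356484, had -0.13.

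**Figure D2:**
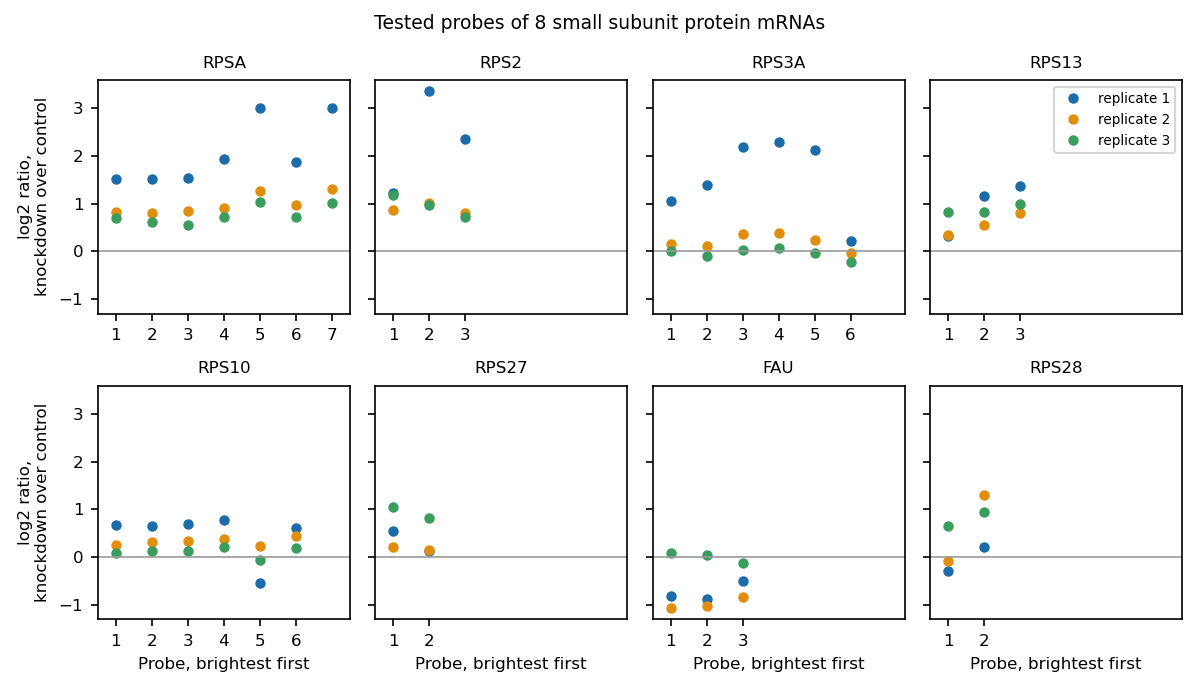
Log2 ratio of knockdown over control (y axis) for each tested probe (x axis, numbered from the brightest) of 8 small subunit mRNAs, with 1 colour per array. The 7 probes of RPSA lie above 0 on every array, and on replicate 1 probes of RPSA, RPS2 and RPS3A reach 3.02, 3.37 and 2.29.

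The arrays differed in where the set as a whole lay. On replicate 1, 20 of the 32 mRNAs were above 0, with a median log2 ratio of 0.14. On replicate 2 it was 18, with a median of 0.062, and on replicate 3 it was 26, with a median of 0.47. Replicate 3 had the highest of the 3 values for 20 mRNAs, replicate 1 for 10 and replicate 2 for 2. Without replicate 3 the median of the set was -0.00088. Above 0 on all 3 arrays were 14 of the 32, or 43.8%, beside 31.1% of all accessions. Below 0 on all 3 were 2, RPS23 being 1 of them, or 6.25%, beside 27.5%. In the brightest 10% of accessions, 455 of 1452 lay above 0 on all 3 arrays and 516 lay below.

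Across the 32 mRNAs, Pearson's r between arrays was 0.63 for replicates 1 and 2, 0.45 for 1 and 3 and 0.76 for 2 and 3. Over all accessions it was 0.75, 0.64 and 0.70. These describe mRNAs that share an array, a dye orientation and a range of brightness. Without replicate 2, limma called 0 of all accessions and so 0 of the 32. At an unadjusted limma p under 0.05, 9 of the 32 were higher and 1 was lower in that run. Over all 14523 accessions tested there, 1756 were higher and 1686 were lower. Bright accessions were not counted apart at this threshold. Of the called mRNAs, RPS20, RPS2 and RPSA then had mean log2 ratios of 1.63, 1.20 and 1.12, with adjusted p of 0.116, 0.116 and 0.127. RPS20 and RPS2 passed the threshold in every other alternative run. RPSA also missed it with no filter on dim probes (limma adjusted p = 0.0621).

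The brightness of these probes made the zero of the scale matter. With background corrected but before loess, the accessions tested had a median log2 Cy5/Cy3 ratio of 0.57, 0.89 and 1.26 on replicates 1, 2 and 3. For the small subunit mRNAs it was 0.98, 1.93 and 2.34, higher by 0.41, 1.04 and 1.08. Bright accessions in general had higher ratios of the dyes: from the dimmest to the brightest 10% the median went from 0.40 to 0.84, from 0.51 to 1.58 and from 1.20 to 1.75. Loess removes such a trend. Because knockdown RNA was in Cy5 on every array, a dye effect in bright spots and a rise of abundant mRNAs cannot be told apart.

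**Figure D3:**
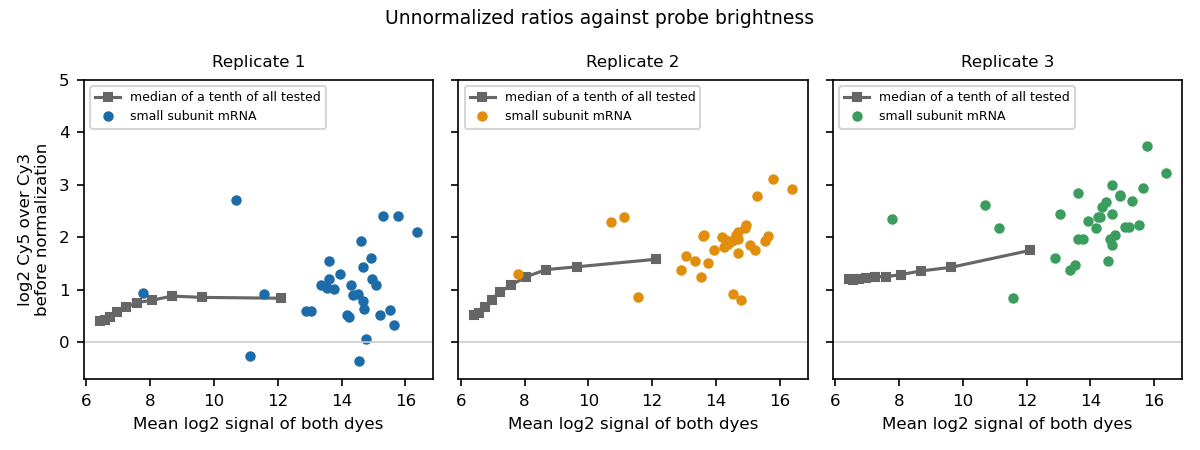
Log2 ratio of Cy5 (knockdown) over Cy3 (control) after background correction and before loess (y axis) against the mean log2 signal of both dyes (x axis), 1 panel per array. Grey squares are medians of 10 brightness classes of all accessions tested, coloured points the 32 small subunit mRNAs, 31 of which lie in the brightest class.

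With each array centred on its median in place of loess, 18 of the 32 rose and 0 fell, beside 18.9% and 0.317% of all accessions, and all 32 means lay above 0 with a median of 1.07, where all accessions had 0.31. Centring on the tested probes gave 18 risen and 0 fallen, beside 16.9% and 5.86%, with a median of 0.75 against -0.0040 for all accessions. Of the 146 accessions in the brightest 1 percent, 38 were ribosomal proteins (19 of the small and 19 of the large subunit). Of all calls 51.5% were rises with loess, 98.4% with median centring and 74.2% with centring on tested probes. Giving all ribosomal protein accessions weight 0 in the loess fit left 5 risen and 1 fallen, beside 9.85% and 9.03% of all accessions, with a median of 0.16. RPS20, RPS2 and RPSA rose with loess and also under both centrings, there with mean log2 ratios of 1.72 to 2.49.

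The remaining alternatives gave the following counts. With a normexp offset of 0, 8 rose and 0 fell, beside 15.9% and 13.7% of all accessions. Without background subtraction 7 rose and 1 fell, beside 12.7% and 11.9%. With the authors' series values 7 rose and 2 fell, beside 13.6% and 12.1%. With the mean of all tested probes of an accession 6 rose and 1 fell, beside 9.84% and 9.06%. RPS13 and RPS27, which missed the threshold with the reported processing, passed it in 6 and 5 of the 16 alternatives.

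Counts of 4 or 5 risen and 1 fallen were found, besides those with ribosomal proteins at weight 0 and without replicate 1, under these changes: the filter in both channels (11.8% and 12.5% of all accessions rose and fell), ignored flags (9.92% and 9.34%), an intensity trend in the variance (16.1% and 14.7%), array weights (10.8% and 10.4%) and Agilent's processed ratio (15.9% and 12.1%). Without a filter on dim probes 2 rose, RPS20 and RPS2, and 0 fell, beside 2.54% and 2.51%. Without replicate 1, 5 rose and 1 fell (6.22% and 5.57%), with RPS14 among those that rose and RPS9 the one that fell. Without replicate 3, 4 rose and 2 fell (9.07% and 9.21%), with FAU among those that fell.

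**Figure D4:**
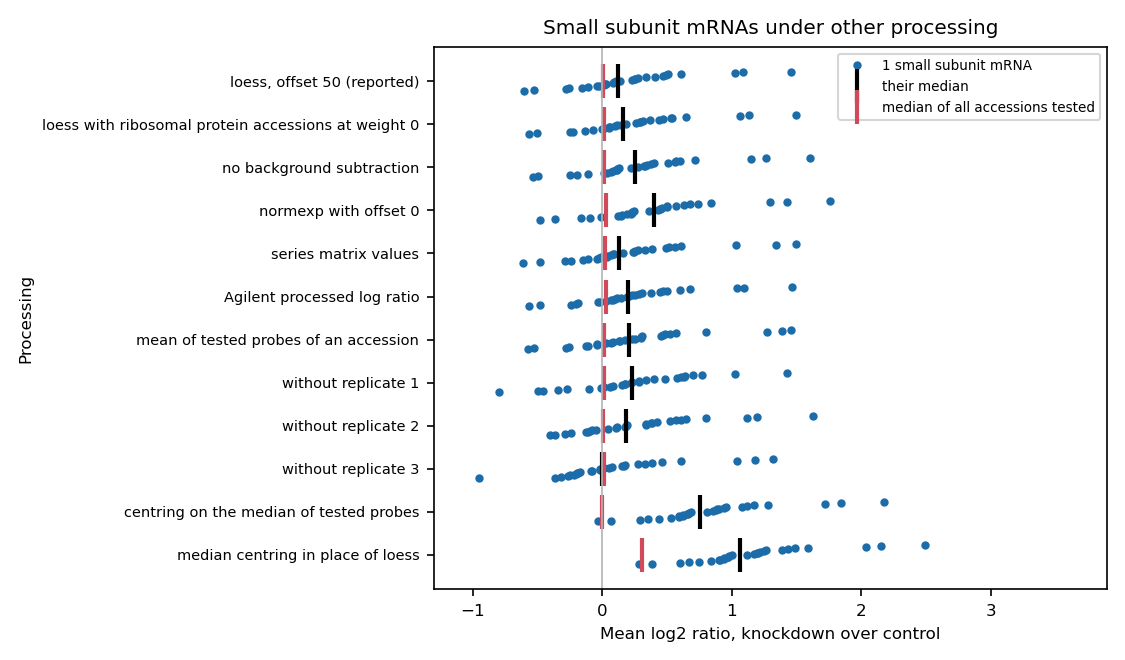
Mean log2 ratio of knockdown over control (x axis) of 28 small subunit mRNAs under 12 ways of processing (y axis); black bars are the medians of all 32 small subunit mRNAs and red bars those of all accessions tested. The points move right together under centring in place of loess, where the medians are 0.75 and 1.07, and the median is 0.40 with a normexp offset of 0 and -0.00088 without replicate 3.

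The large subunit served as the nearest comparison. Of 47 listed accessions of its proteins, 38 were on the array and all 38 were tested. Of these 5 rose and 6 fell, with means from -1.45 to 1.00 and a median of 0.050. The shares of 13.2% and 15.8% lay below the 17.8% and 21.3% of the brightest 10% of accessions. On replicates 1, 2 and 3 the median of the large subunit mRNAs was -0.16, -0.12 and 0.29, and that of the small subunit mRNAs 0.14, 0.062 and 0.47. Both sets were highest on replicate 3, and the small subunit median was above the large subunit median on 3 of 3 arrays. An exact sign-flip test over 3 arrays cannot go below p = 0.25.

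Other mRNAs known for a 5′ TOP motif, among them elongation factors and the poly(A)-binding protein, were tested under 16 of 19 listed accessions. Of these 4 rose and 2 fell, with a median of 0.31 and means from -2.28 to 1.11. The shares of 25% risen and 12.5% fallen stood beside 9.91% and 9.33% of all accessions tested. In the brightest 10% of accessions 17.8% rose and 21.3% fell, and these TOP mRNAs had a median brightness percentile of 96.9. The medians of these TOP mRNAs by array, 0.62, 0.32 and -0.045, were lowest on replicate 3, where those of both ribosomal subunits were highest.

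Proteins of the mitochondrial small subunit, which are encoded in the nucleus by mRNAs outside the TOP class, were tested under 29 of 32 listed accessions. Of these 2 rose and 11 fell, or 6.90% and 37.9%, beside 9.91% and 9.33% of all accessions tested. Their median was -0.36, with medians by array of -0.35, -0.57 and -0.28. Their probes were less bright, at a median percentile of 88.0 among accessions, against 99.3 for the cytosolic small subunit. Among accessions from percentile 80 to 90 of brightness, 18.8% rose and 16.9% fell, so bright accessions in general had more falls than all accessions. The last list held 14 accessions of genes linked to the control of TOP mRNAs. They covered mTORC1 and its regulators, RPS6KA and RPS6KB kinases, EIF4E, EIF4EBP proteins and LARP1. Of these 13 were tested, and 3 rose and 1 fell, or 23.1% and 7.69%, with a median of 0.17. Over all accessions tested 9.91% rose and 9.33% fell. The differences between these lists were not tested.

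**Figure D5:**
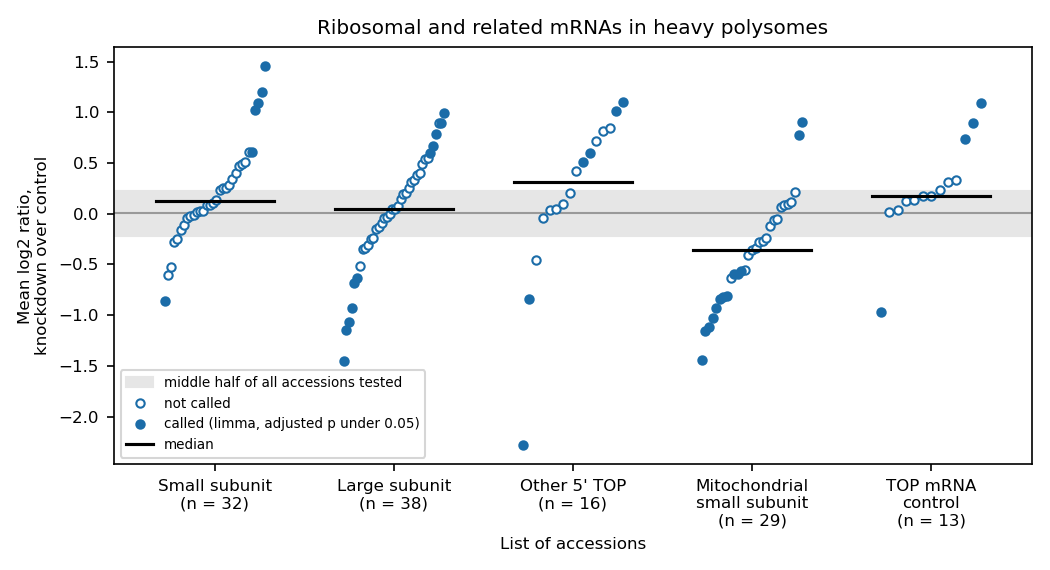
Mean log2 ratio of knockdown over control (y axis) of each tested accession in 5 lists (x axis); filled points passed the test, black lines are list medians, and the grey band spans the middle 50% of all accessions tested. The medians are 0.13 for the small subunit, 0.050 for the large subunit and 0.31 for other TOP mRNAs. They are -0.36 for the mitochondrial small subunit and 0.17 for genes linked to the control of TOP mRNAs.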

How the data were processed

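The submitters' processing notes name Agilent Feature Extraction, version 10.9, and limma; the authors' deposited scanner output gives spot intensity on a linear scale. The deposited tables hold median spot and background intensities, flags of a spot (other values of 0 or 1), processed signals and their log10 ratio of Cy5 over Cy3. The authors' deposited series table holds log2 ratios of unstated scale, centring and direction, which served as an alternative. They were set beside loess-normalized Cy5 over Cy3 values without background subtraction and with flags ignored, not beside the reported values. Pearson's r was 0.995, 0.994 and 0.994, with slopes of 1.06, 1.07 and 1.05. The medians of the series values were 0, 0.01 and 0.01.

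In R 4.3.3 with limma 3.58.1, background was corrected by normexp (offset 50), each array was loess-normalized with control spots at weight 0, and flagged spots were left out. Probes entered the test if 1 channel or both exceeded background clearly on each of the 3 arrays (18143 of 41000 probes), and an accession by its brightest such probe (14526). Log2 ratios were tested 2-sided with lmFit and eBayes and Benjamini-Hochberg adjustment over all accessions, or over all probes where stated. The number of arrays limits the precision. Dyes were not swapped and all arrays share a slide. The test was run on simulated data first.

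Full values were to be given for called members and for the 3 highest and 3 lowest means; 4 tested members enter the counts and medians but are not reported here one by one. Members and lists were chosen with earlier results of these data known, and the comparison lists of ribosomal, TOP and mitochondrial accessions are given by counts. The files pair accessions with no symbols; those of the members, RHA and the cell markers are from general knowledge of RefSeq. Sequences were not used here.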

Additional observations from a re-analysis of the deposited data

How the results depend on the processing

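Knockdown and control share every array, so that the ratio is itself the paired value and the test on ratios was paired. No further pairing was possible because no second group of arrays exists. Rises among small subunit mRNAs numbered 8 with a normexp offset of 0, 18 under both centrings and 2 without the filter on dim probes, with 0 falls in each, and the series table gave 2 falls. Their median log2 ratio became 0.40 with the offset of 0, 1.07 with median centring and 0.75 with centring on tested probes. Over all accessions, 2314 rose with the offset of 0, 2306 with Agilent's ratio and 2342, with 2129 fallen, under the intensity trend. Median centring gave 2748 rises and 46 falls, centring on tested probes 2448 and 851, and no filter gave 829 and 821. RHA had 0.26 with median centring. When single replicates were left out, the small subunit mRNAs had from 0 to 5 rises and from 0 to 2 falls. Over all accessions rises then ran from 0 to 1317 and falls from 0 to 1338, with 0 where replicate 2 was absent. The cause of these shifts was not tested.

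The sign of these members changed, including that of FAU and RPS9, which had means of -0.60 and -0.52 in the reported processing. With the offset of 0, RPS6 had a mean log2 ratio of 0.19, RPS15A 0.15 and RPS24 0.15, and without background subtraction these were 0.064, 0.039 and 0.012. Median centring gave RPS3 0.75, RPS4X 0.67, RPS6 0.94, RPS9 0.28, RPS15A 0.91, RPS23 0.60, RPS24 0.90 and FAU 0.38. Centring on tested probes gave RPS3 0.44, RPS4X 0.35, RPS6 0.63, RPS15A 0.59, RPS23 0.29, RPS24 0.59 and FAU 0.070. With ribosomal proteins at weight 0, RPS15A had 0.0039, and with array weights RPS27A had -0.0049. With Agilent's ratio RPS6 had 0.030, and with the series table RPS27A had -0.010. Leaving out single replicates gave ranges across 0 for RPS24 (-0.26 to 0.013), RPS18 (-0.087 to 0.23), RPS15A (-0.11 to 0.11), RPS14 (-0.29 to 0.70), RPS27A (-0.22 to 0.15), RPS28 (-0.19 to 0.28), RPS21 (-0.25 to 0.49) and RPS26 (-0.21 to 0.23). All 32 tested members exceeded background in every channel; the number of arrays limits the precision.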
